A study of Mus musculus with 4 samples.

Results

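Interferon response and MHC class I genes were followed in primary astrocyte cultures from the mouse brain. The list held 41 genes, chosen by name but with earlier results of these data known. A probe set annotated to that gene alone was found for 37 of them, on 51 probe sets, out of 12394 genes represented in this way on the array. Isg15, Tgtp1, Xaf1 and Ifi44 were not analysed here. The cultures came from CD-1 pups, an outbred stock, at postnatal day 3, and from 4 regions: the ventral mesencephalon (VM), the lower midbrain; the subventricular zone (SVZ), where new neurons are born beside the ventricle; the olfactory bulb (OB); and the hippocampus (HC). All 4 cultures were untreated, grown in medium with serum, shaken to enrich for astroglia and replated as monolayers, and the labels give no genotype beyond the stock. Tissue of littermates was pooled, and the design text names both 4 and 3 pups. Each culture was hybridised to 1 array, so every difference below lacks replicates and has no test. A pooled culture is also a bulk sample, in which fewer cells of a type and less RNA per cell cannot be told apart.

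Interferons are secreted proteins that cells release on sensing viral nucleic acid or, for interferon-gamma, that activated lymphocytes release. Type I interferons act through the receptor chains Ifnar1 and Ifnar2 and interferon-gamma through Ifngr1 and Ifngr2; Janus kinases then phosphorylate STAT proteins, and a complex that holds Stat2 and Irf9 binds the interferon-stimulated response element (ISRE) of target genes, while the gamma-activated site (GAS) is the element of the interferon-gamma response. The targets block viral replication, and they also raise MHC class I presentation, in which peptides cut by the immunoproteasome are carried into the endoplasmic reticulum and loaded on class I heavy chains bound to beta-2-microglobulin. Astrocytes carry both kinds of receptor.

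The interferon genes were highest in the VM culture. It had the highest signal of the 4 arrays for 33 of 37 members, where 20.0% of all 7988 genes above a signal floor on at least 1 array had theirs. SVZ was highest for 2, Irf1 and Ifitm3 (background 23.3%), OB for Ifitm1 (28.7%) and HC for Irf8 (28.0%). The floor, 122.1, is the median of all deposited signals; values under it were set to it, so that a fold against such a value is a bound, written "at least". With such ties set aside, VM alone was lowest for 0 members (22.3%), SVZ for 1 (19.6%), OB for 16 (22.2%) and HC for 14 (19.4%). At least 2-fold above every other array were 14 members in VM (background 1.56%) and none below (0.563%). In SVZ 0 were 2-fold above (1.28%) and 1, Ifitm1, below (1.01%). In OB 0 were above (1.87%) and 3 below (1.55%), Ifit2, Rsad2 and Bst2. HC had 1 above (2.49%), Irf8, and 2 below (0.488%), Irgm1 and Ifi47. Among the 29 members above the floor on all 4 arrays, the signal order was VM, SVZ, HC, OB for 15 and the same with the last pair exchanged for 8. The counts depend on which arrays are set against each other: without the SVZ array 26 members were 2-fold higher in VM than in both remaining cultures (background 3.62%), and without the VM array 11 were higher in SVZ (3.48%). Without the HC array 15 were lower in OB (3.88%), and without the OB array 15 were lower in HC (2.51%).

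Each member's log2 signal in a culture was set against its mean in the remaining 3. The median of this difference over the 37 members was 1.46 in VM, 0.28 in SVZ, -0.63 in OB and -0.80 in HC. Over all 7988 genes these medians lay between -0.06 and 0.01. All 37 members were above the floor on at least 1 array and 29 on all 4. Different probe sets of the same gene scattered by 0.22 in a log2 difference between arrays (median-based SD per probe set, 1979 genes), which measures the array and not the spread between cultures. Of 11 further probe sets of members above the floor on some array, 10 had their highest signal in the same culture as the probe set used. The exception was a probe set of B2m, with 11263.5 in VM and 12350.1 in SVZ.

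**Figure D1:**
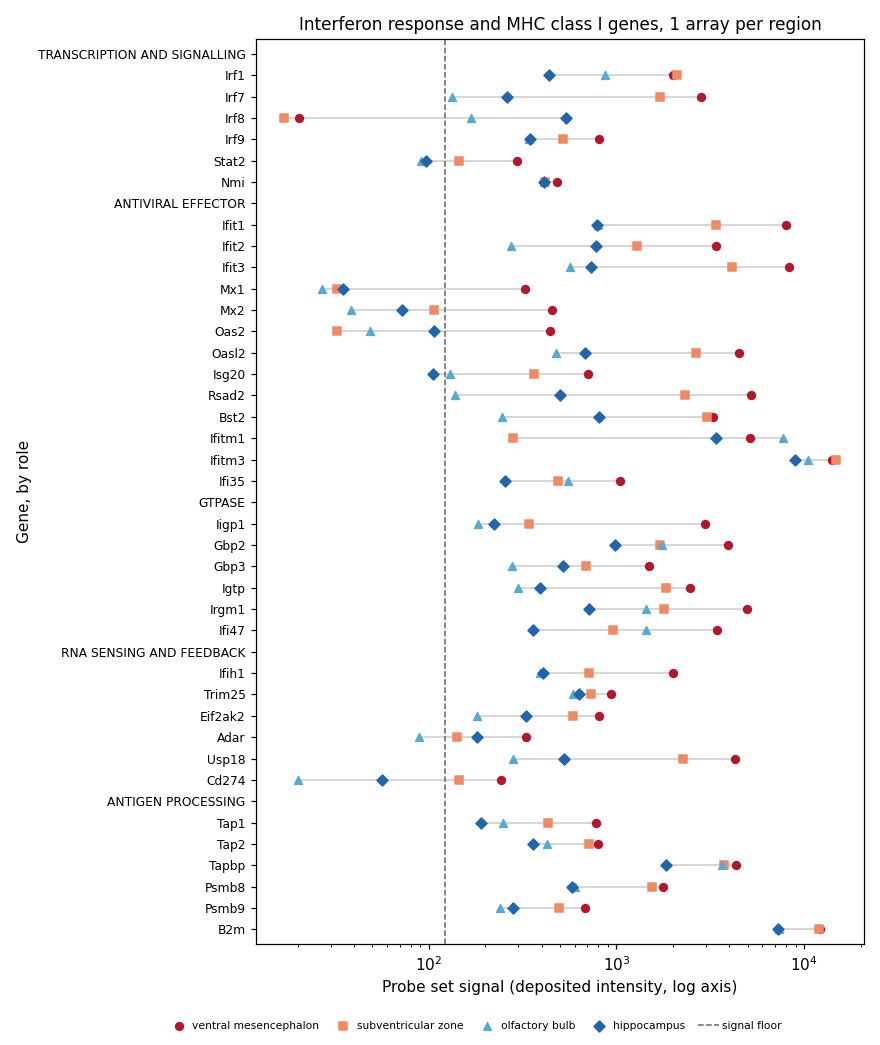
Signal of each of the 37 member genes (log axis, deposited intensity) on the 4 arrays, 1 per culture, grouped by role; each point is 1 array and the dashed line is the floor of 122.1. VM is rightmost for 33 genes, and Irf8 and Ifitm1 have their highest signal in HC and OB.

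Stretches before the transcript start are shown for members of the main roles, so that the letters an interferon-activated factor could meet can be read. RefSeq promoter windows (GRCm38.p6, 250 bases before to 50 after the start) were available for 31 of the 37 members. Both strands were searched for the ISRE core, which is GAAA, any 2 bases and GAAA again (TTTC, any 2 bases and TTTC on the other strand), and for the GAS core TTCNNNGAA, which reads the same on both strands. Printed are the 160 bases before the start, 5′ to 3′ on the gene's strand, with the ISRE core in capitals for the first 8 genes and the GAS core in capitals for Irf1. The intervals are chr19:34640729-34640888 for Ifit1 and chr19:34583369-34583528 for Ifit3 (both plus strand), chr12:26456453-26456612 for Rsad2 and chr8:71537473-71537632 for Bst2 (both minus strand), chr3:142620503-142620662 for Gbp2 (plus), chr11:48871421-48871580 for Irgm1 (minus), chr11:58199396-58199555 for Igtp (plus), chr2:122147527-122147686 for B2m (plus) and chr11:53769854-53770013 for Irf1 (plus).
Ifit1: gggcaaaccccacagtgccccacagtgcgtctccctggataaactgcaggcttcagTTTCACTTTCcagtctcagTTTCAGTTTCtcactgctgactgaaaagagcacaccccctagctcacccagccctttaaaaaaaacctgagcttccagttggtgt
Ifit3: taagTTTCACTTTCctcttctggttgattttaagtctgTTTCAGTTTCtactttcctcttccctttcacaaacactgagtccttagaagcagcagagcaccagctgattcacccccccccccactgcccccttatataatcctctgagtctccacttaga
Rsad2: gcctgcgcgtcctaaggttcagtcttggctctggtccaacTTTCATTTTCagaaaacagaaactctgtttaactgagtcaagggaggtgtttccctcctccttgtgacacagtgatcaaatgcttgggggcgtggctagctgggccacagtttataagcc
Bst2: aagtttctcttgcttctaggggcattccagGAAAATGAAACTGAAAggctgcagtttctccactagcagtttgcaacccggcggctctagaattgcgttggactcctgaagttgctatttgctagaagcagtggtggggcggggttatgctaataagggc
Gbp2: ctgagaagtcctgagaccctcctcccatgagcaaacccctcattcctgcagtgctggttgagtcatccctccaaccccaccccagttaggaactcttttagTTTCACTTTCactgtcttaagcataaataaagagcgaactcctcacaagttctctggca
Irgm1: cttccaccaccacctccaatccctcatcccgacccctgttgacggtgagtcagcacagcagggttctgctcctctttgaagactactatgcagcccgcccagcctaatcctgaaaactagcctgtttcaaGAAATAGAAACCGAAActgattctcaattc
Igtp: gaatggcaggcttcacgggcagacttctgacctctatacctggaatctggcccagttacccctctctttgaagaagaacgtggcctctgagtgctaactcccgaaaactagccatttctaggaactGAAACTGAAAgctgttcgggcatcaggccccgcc
B2m: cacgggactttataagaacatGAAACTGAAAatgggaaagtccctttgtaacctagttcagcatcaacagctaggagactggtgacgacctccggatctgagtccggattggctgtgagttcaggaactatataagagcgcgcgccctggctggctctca
Irf1: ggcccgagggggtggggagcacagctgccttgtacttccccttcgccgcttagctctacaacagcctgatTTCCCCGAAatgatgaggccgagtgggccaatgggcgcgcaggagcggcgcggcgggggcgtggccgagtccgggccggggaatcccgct

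An ISRE core was present in 13 of the 31 members (41.9%), against 3.99% of 27025 genes with a window, and in 10 of them it lay wholly before the start. By windows these were 13 of 40 (32.5%), against 3.44% of all 32851 windows. The GAS core was present in 11 of 31 members (35.5%, against 9.55% of all genes); 4 members held both cores and 11 neither. In 2 places the cores overlapped by at least 1 base, in Bst2 and Ifitm3. Ifit1, Ifit3 and Ifitm3 held a pair of separate ISRE cores, and Bst2, Gbp3 and Irgm1 a pair that overlapped. Of the 13 members with the core, 8 were 2-fold above every other array in VM, as were 2 of the 18 without it (background 1.56% of all genes). The other 4 of the 14 members so called, Mx1, Mx2, Oas2 and Iigp1, had no window. Members counted as without the core lack only an exact match in the windows searched. The median log2 differences of members with the core, and then of those without, were 1.02 and 0.73 for VM minus SVZ, 2.35 and 1.24 for VM minus OB, and 2.03 and 1.45 for VM minus HC. For SVZ minus OB they were 1.32 and 0.47, while for SVZ minus HC they were 0.83 and 0.88. Whether the factors bound there was not measured, and members were listed as interferon targets to begin with.

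**Figure D2:**
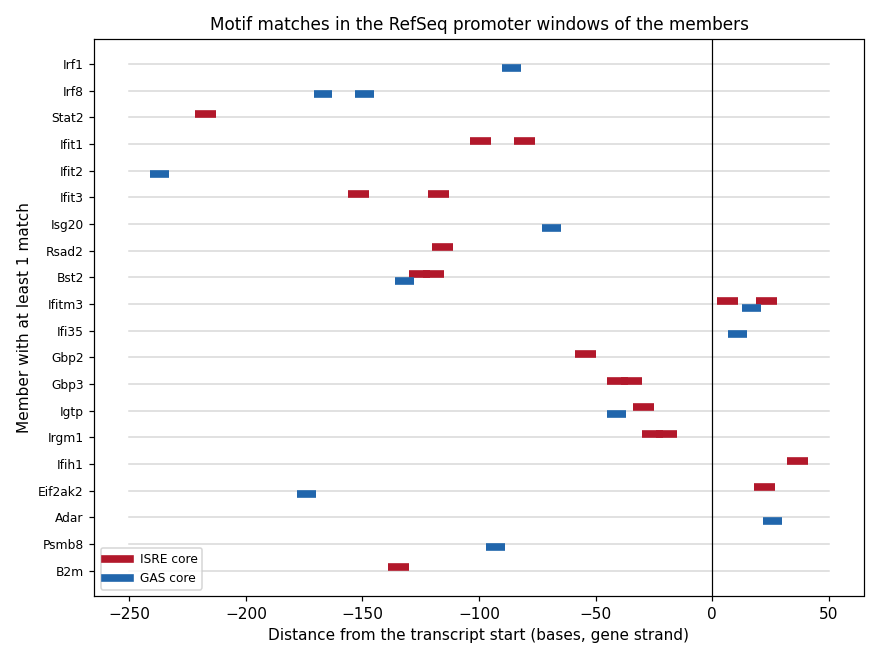
Positions of ISRE cores (red) and GAS cores (blue) relative to the transcript start (bases, on the gene's strand) in the promoter windows of the members that hold at least 1 match. ISRE cores lie within 160 bases before the start, except those of Stat2, farther upstream, and of Ifitm3, Ifih1 and Eif2ak2, after it.

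Among the transcription factors, Irf7, which amplifies type I interferon production, read 2810.5 in VM, 1714 in SVZ, 133 in OB and 261 in HC. The cultures formed a high and a low pair, with VM 21.1-fold above OB and SVZ 6.56-fold above HC. Irf1, an early factor downstream of interferon-gamma whose GAS core is printed above, read 1992.5 in VM, 2112 in SVZ, 873 in OB and 439 in HC. Here VM and SVZ were nearly level, and OB lay 1.99-fold above HC. Stat2 and Irf9, which bind the ISRE together, peaked in VM. Stat2 had 295 there, 145 in SVZ and values below the floor in OB (90.3) and HC (96.1). Its gap to SVZ was 2.03-fold, just past the threshold; a second probe set gave 228 in VM and 120.0 in SVZ. Irf9 read 804 in VM, 522 in SVZ, 341 in OB and 345 in HC, a smaller range than that of Irf7. Nmi, a protein that binds STATs and Ifi35, was nearly even, with 485 in VM and 413 to 417 elsewhere.

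Irf8, which myeloid cells need to develop, went against the rest of its group. It read 535 in HC, 167 in OB, 20.4 in VM and 16.9 in SVZ, and HC was 3.20-fold above OB. Its second probe set had 225 in HC, 132 in OB, 6.1 in VM and 5.6 in SVZ. Microglia and macrophage markers were likewise higher in HC and OB than in VM and SVZ. All 14 listed markers were above the floor in HC and 13 in OB, against 0 in VM and 2 in SVZ. Their summed signals were 35294 in HC, 34113 in OB, 360.1 in VM and 585 in SVZ. These sums did not share the gap of Irf8 between HC and OB, but single markers differed. C1qc, Trem2, Lyz2 and Adgre1 were higher in OB, and all others on the list were higher in HC. Cx3cr1 read 739 in HC and 288 in OB. Lyz2, the largest part of the OB sum, read 11249 in OB and 9016 in HC. The complement chain C1qa read 1.5 in both VM and SVZ. The part of microglia in the Irf8 values was not tested.

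Of the 13 antiviral effectors, 7 were at least 2-fold above every other array in VM (background 1.56%) and 3 were lower in OB (1.55%). Ifit1, whose protein holds back viral RNA that lacks a cap modification, read 8007 in VM, 3388 in SVZ, 796 in OB and 783 in HC. Ifit3, its partner, read 8274 in VM, 4107 in SVZ, 568 in OB and 733 in HC. For both genes VM stood more than 10-fold above OB and HC, and 2.36-fold (Ifit1) and 2.01-fold (Ifit3) above SVZ; after quantile normalization Ifit3 was no longer called. Ifit2, another member of this tetratricopeptide family, had 3385 in VM, 1291 in SVZ, 275 in OB and 780.0 in HC. In Ifit2 OB was 2.84-fold below HC, a separation not seen in Ifit1 (1.02-fold).

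Rsad2, viperin, which makes a chain-terminating nucleotide, read 5230.1 in VM, 2331 in SVZ, 137.5 in OB and 498 in HC. This 38.0-fold range between VM and OB was the widest of any member measured above the floor on all 4 arrays, and the other 2 probe sets of the gene were also highest in VM and second in SVZ. Bst2, tetherin, which holds budding virus at the cell surface, read 3272 in VM, 3035 in SVZ, 245 in OB and 803 in HC. VM and SVZ were within 1.08-fold of each other, and OB was 3.28-fold below HC. Oasl2, of the oligoadenylate synthetase family, read 4519 in VM, 2667.5 in SVZ, 475 in OB and 680.2 in HC, and the exonuclease Isg20 702 in VM, 361 in SVZ, 130.0 in OB and 106 in HC; neither had a 2-fold gap to SVZ.

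Some effectors were above the floor in VM only. The dynamin-like GTPase gene Mx1 read 326 there, against 32.4 in SVZ, 27.1 in OB and 35.1 in HC, at least 2.67-fold lower. Mx2 read 454 in VM, against 106 in SVZ, 38.3 in OB and 71.9 in HC (at least 3.72-fold). Oas2, which makes the activator of RNase L, read 439.7 in VM, against 32.5 in SVZ, 48.4 in OB and 107 in HC (at least 3.60-fold). Below the floor the order of the other cultures carries no meaning, and with the floor at the 70th percentile of signals none of these 3 genes was called, nor were Stat2 and Irf8.

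The interferon-induced membrane proteins Ifitm1 and Ifitm3, which hinder virus entry, did not follow the Ifit genes. Ifitm3 was high in every culture, with 14064 in VM, 14768.5 in SVZ, 10482 in OB and 8967 in HC, a range of 1.65-fold. Ifitm1 read 5166 in VM, 282 in SVZ, 7749 in OB and 3392 in HC. SVZ was 12.0-fold below HC, the next lowest, although 23 of the 29 members above the floor on all arrays had their second highest signal there. Fibroblast and meningeal markers had the same low point: the summed signal of the 6 markers was 33254 in VM, 4748 in SVZ, 37355 in OB and 15765 in HC. Of these 6, 3 were above the floor in SVZ, against 5 in VM, 6 in OB and 6 in HC. Their part in the Ifitm1 values was not tested. Ifi35, a partner of Nmi, lay between both patterns, with 1043 in VM, 490.1 in SVZ, 553 in OB and 253 in HC; SVZ and OB were close and HC low.

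The interferon-inducible GTPases attack the membranes around intracellular pathogens. All 6 measured members were at least 2-fold higher in VM than in OB (background 6.46%) and in HC (6.77%). In VM 5 were 2-fold above every other array (1.56%). Iigp1 had the widest gap above the next array among members whose gap is no bound, reading 2967 in VM, 339.9 in SVZ, 184 in OB and 223 in HC. It was 8.73-fold above SVZ, and its second probe set read 1789 in VM, 173.5 in SVZ, 65.4 in OB and 128 in HC. Igtp differed, with 2467 in VM, 1836.5 in SVZ, 300.1 in OB and 391 in HC: its VM value was only 1.34-fold above SVZ, and both lay well above the other pair.

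Between OB and HC the GTPases had no common direction, with a median log2 difference of 0.27 and a range from -0.91 to 2.01. Irgm1, which regulates the other immunity-related GTPases, read 4968 in VM, 1801 in SVZ, 1430.5 in OB and 712 in HC, with VM 2.76-fold above SVZ and HC 2.01-fold below OB. For Ifi47, another of these GTPases, the signals were 3427 in VM, 956 in SVZ, 1443 in OB and 359 in HC, with VM 2.37-fold above OB, and OB 1.51-fold above SVZ and 4.02-fold above HC. Gbp2, a guanylate-binding protein, read 3925 in VM, 1702 in SVZ, 1740.0 in OB and 982.5 in HC; VM was 2.26-fold above OB, while SVZ and OB were level. A second probe set of Gbp2, without the array maker's mark for cross-hybridisation, read 3819.7 in VM, 1775 in SVZ, 1346 in OB and 825 in HC, with SVZ above OB by 0.40 in log2. Gbp3 read 1495 in VM, 691 in SVZ, 276 in OB and 519 in HC, with VM 2.16-fold above SVZ and OB lowest. Probe sets of the guanylate-binding and immunity-related GTPases can pick up transcripts of their close relatives, and the probe set of Gbp2 used here carries that mark.

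**Figure D3:**
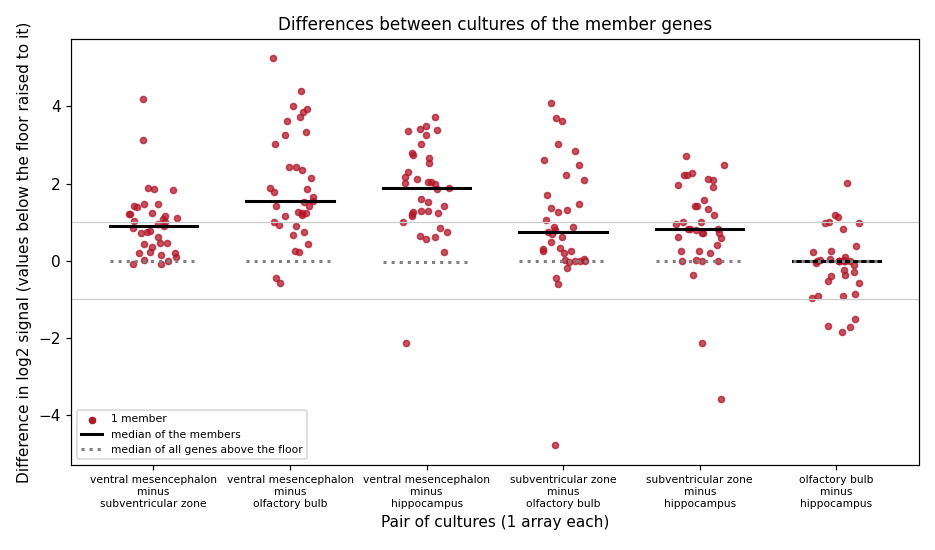
Differences in log2 signal between the cultures of each pair for the 37 members (points), with the members' median (black line) and the median of all 7988 genes above the floor (dotted); grey lines mark 2-fold. Members lie mostly above 0 for every pair except OB minus HC, whose median is 0.00.

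Among sensors and feedback genes, by the probe set used for each, only Ifih1 was 2-fold above every other array in VM. Ifih1, the long double-stranded RNA sensor MDA5, read 1996 in VM, 718 in SVZ, 391 in OB and 406 in HC, a gap of 2.78-fold. Usp18, which removes Isg15 from proteins and dampens type I receptor signalling, read 4278.5 in VM, 2268.5 in SVZ, 279.6 in OB and 527 in HC, with SVZ 4.31-fold above HC. The RNA-activated kinase gene Eif2ak2 read 803.5 in VM, 585 in SVZ, 180.2 in OB and 329 in HC. The ubiquitin ligase gene Trim25, which activates RNA sensing, read 934 in VM, 734 in SVZ, 589 in OB and 634 in HC. That is a 1.59-fold range on the probe set used, and its other probe sets ranged wider. On 1 of them only VM passed the floor, with 263 against 44.6 in SVZ, 28.0 in OB and 50.3 in HC. There VM lay at least 1.11 in log2 above every other array. The RNA-editing enzyme Adar read 328 in VM, 141 in SVZ, 88.3 in OB and 182 in HC, so here HC exceeded SVZ. Cd274, the checkpoint ligand PD-L1, was above the floor in VM (244) and SVZ (145) but not in OB (20.1) or HC (56.6).

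Of the 6 antigen-processing members none had a 2-fold gap to every other array, and their median log2 difference of VM minus SVZ was 0.20, where it was 1.33 for the GTPases and 1.17 for the antiviral effectors; these medians describe the lists and were not tested against each other. In SVZ 2 of the 6 were 2-fold above OB (background 9.00%) and 3 were 2-fold above HC (4.94%). B2m, beta-2-microglobulin, read 12200.0 in VM and 11946 in SVZ, with 7314 in OB and 7268 in HC. The immunoproteasome subunit genes Psmb8 and Psmb9 behaved alike. Psmb8 read 1763 in VM, 1543 in SVZ, 601 in OB and 577 in HC, and Psmb9 682 in VM, 492 in SVZ, 238 in OB and 279.7 in HC. Tap1, a chain of the peptide transporter, had 779 in VM, 429 in SVZ, 248 in OB and 189 in HC; 3 further probe sets annotated to it were below the floor on all arrays. Tap2, the other chain, read 798 in VM, 713 in SVZ, 425 in OB and 357 in HC. For Tapbp, tapasin, which joins the transporter to class I, HC stood alone with 1847, against 4337 in VM, 3736 in SVZ and 3629.6 in OB. A second probe set of Tapbp was more graded, with 641.5 in VM, 603 in SVZ, 487 in OB and 359 in HC.

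Between pairs of cultures, 17 members were 2-fold higher in VM than in SVZ (background 4.97%) and 0 lower (5.45%). Against OB 27 were higher (6.46%) and 0 lower (5.53%), and against HC 29 were higher (6.77%) and 1, Irf8, lower (9.43%). SVZ had 15 members above OB (9.00%) with 1, Ifitm1, below (8.39%), and 15 above HC (4.94%) with 2, Ifitm1 and Irf8, below (6.53%). OB had 4 members above HC (5.23%), namely Ifitm1, Ifi35, Irgm1 and Ifi47. It had 4 below (8.69%), namely Irf8, Ifit2, Rsad2 and Bst2. These comparisons share arrays and are not independent of each other.

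The other genes of the pathway were followed from a separate list of 110, of which 81 had a probe set of their own. None of 10 interferon genes was above the floor on any array, and the highest signal among them was 92.2. Ifnb1 read 39.8 in VM, 14.3 in SVZ, 7.2 in OB and 5.4 in HC, and Ifng 0.6 in VM, 9.1 in SVZ, 7.1 in OB and 7.8 in HC. Values below the floor do not show that the transcripts were absent. Lymphocyte markers, which would mark a source of interferon-gamma, were also below the floor throughout: none of 9 measured reached it, and the sums were 61.3 in VM, 72.9 in SVZ, 36.9 in OB and 33.3 in HC. None of 4 dendritic cell markers reached it either.

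By the probe set used for each, all 5 receptor chains were above the floor on every array and none had a 2-fold gap. Their ranges between cultures ran from 1.39-fold to 2.12-fold, the widest being that of Il10rb. Ifnar1 read 446 in VM, 329 in SVZ, 495 in OB and 414 in HC, and Ifnar2 1289 in VM, 878 in SVZ, 757 in OB and 657 in HC. A second probe set of Ifnar2 ranged wider, with 552 in VM, 375 in SVZ, 207 in OB and 216 in HC. The list held 13 signalling genes, which include Jak1, Jak2, Tyk2, Irf3 and Tbk1. By the probe set used for each, none had a 2-fold gap to every other array in either direction, though single pairs lay farther apart. Jak2, a kinase of the interferon-gamma receptor, read 784 in VM, 585 in SVZ, 320.2 in OB and 486 in HC. A second probe set of Jak2 read 475 in VM, 402 in SVZ, 122.1 in OB and 261 in HC. On it OB, at the floor, was more than 2-fold below every other array. Ikbke, a kinase that activates Irf3 and Irf7, read 301 in VM, 386 in SVZ, 175.5 in OB and 591 in HC.

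Among 12 sensors, of which 10 were above the floor on some array, 3 were at least 2-fold above every other array in VM (background 1.56%). Zbp1, which senses Z-form nucleic acid, read 1857 in VM, 366 in SVZ, 65.1 in OB and 77.0 in HC, a gap of 5.07-fold. The DNA-binding Ifi204 read 778 in VM, 193 in SVZ, 15.0 in OB and 21.5 in HC, and Dhx58, a regulator of RNA sensing, 512 in VM, 128 in SVZ, 69.4 in OB and 96.9 in HC; both were 4.01-fold to 4.02-fold above the next array. Of 28 other interferon-induced genes, 25 were above the floor on some array. Higher in VM were 6 (background 1.56%), Oas1a, Irgm2, Parp12, Cmpk2, Pml and Lgals9. In OB 3 were lower (1.55%), Trim30a, Cmpk2 and Cxcl10, and in SVZ 1, Lgals9, was lower (1.01%). Their median differences were 0.81 between VM and SVZ and 1.96 between VM and OB, over the 25 above the floor. Cxcl10, a chemokine used as an interferon readout, read 5090.0 in VM, 3661 in SVZ, 114 in OB and 389 in HC, with OB at least 3.19-fold below HC. Lgals9, a galectin, read 2815 in VM, 209.7 in SVZ, 827 in OB and 899 in HC, high in VM by 3.13-fold over HC and low in SVZ.

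**Figure D4:**
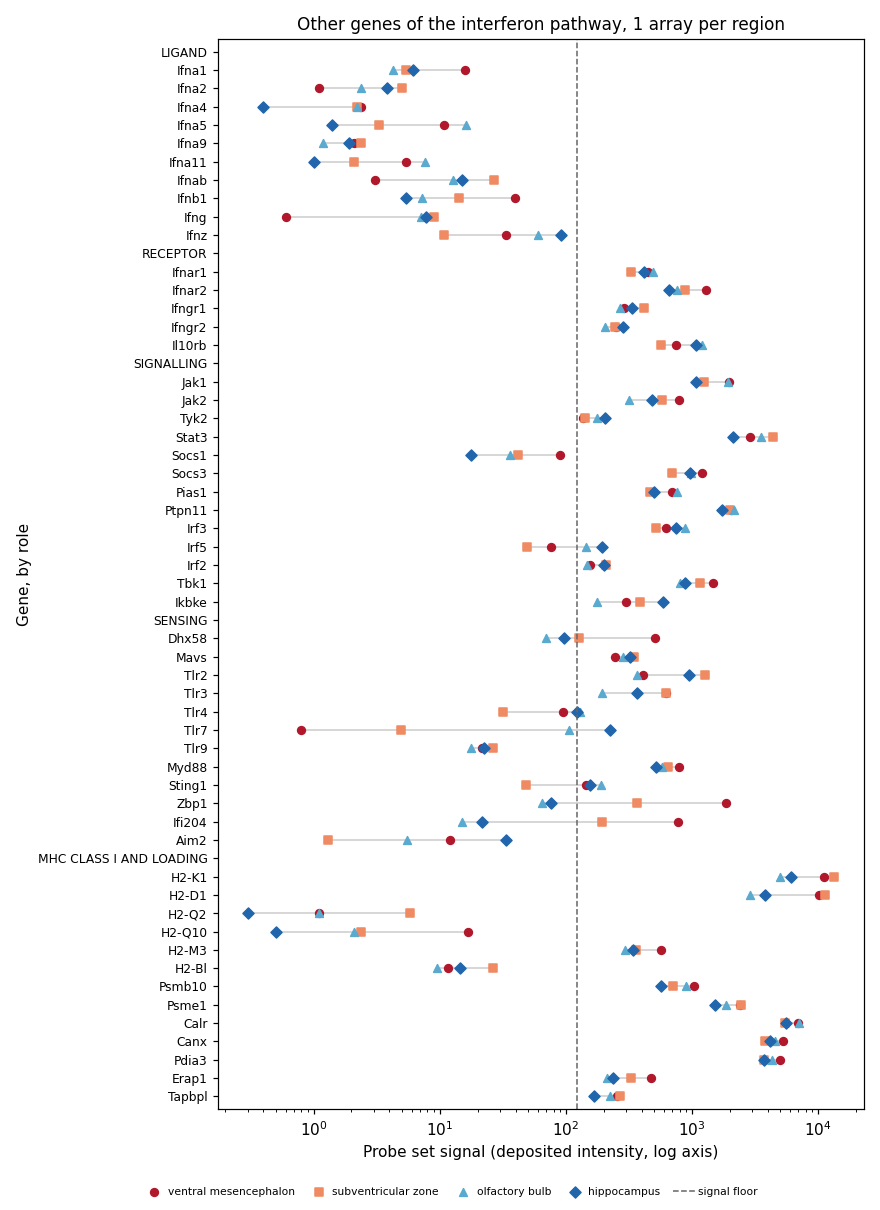
Signal (log axis, deposited intensity) of other interferon pathway genes on the 4 arrays, 1 per culture, grouped by role, with the floor of 122.1 dashed. All 10 ligands lie left of the floor, the 5 receptor chains lie close together right of it, and Zbp1, Ifi204 and Dhx58 have a wide gap between VM and the next culture.

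The class I heavy chain genes are polymorphic and nearly identical to each other, and most of their probe sets carry the mark for cross-hybridisation, so their values are uncertain. All 4 probe sets of H2-K1 were higher in VM and SVZ than in OB and HC. That of highest mean signal read 11256.5 in VM, 13449 in SVZ, 5038 in OB and 6075 in HC. H2-D1 had 9 probe sets, 7 of them above the floor on at least 1 array, and they disagreed. In 4 VM and SVZ were higher, as in that of highest mean signal, with 10243 in VM, 11322 in SVZ, 2868 in OB and 3775 in HC. The other 3 read 7.6 to 53.3 in VM and 14.6 to 46.2 in SVZ, all below the floor, against 1578 to 1969 in OB and 2019 to 2254 in HC. The direction of H2-D1 therefore depends on the probe set, and no direction is given for it here.

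**Figure D5:**
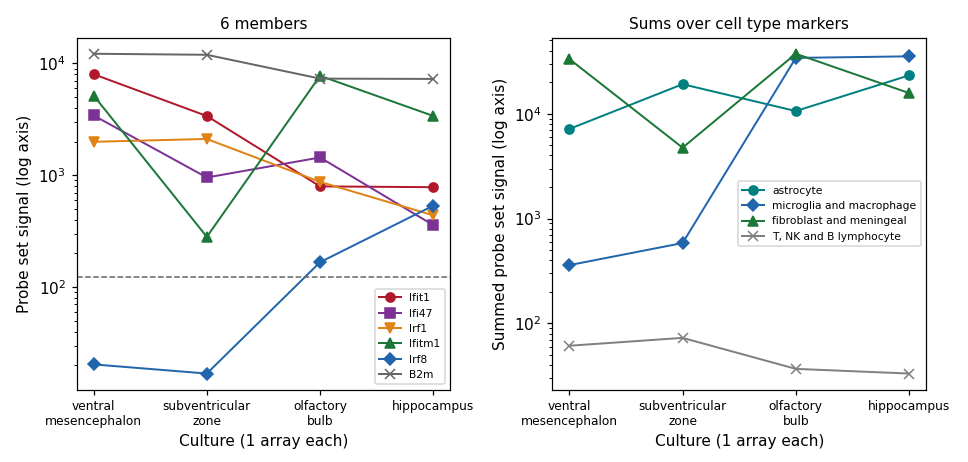
Left, signal (log axis) of 6 members in the 4 cultures, 1 array each, with the floor dashed; right, summed signal (log axis) over the markers of 4 cell types in the same cultures. Lines only join values of the same gene or list: Irf8 and the microglial sum are high in OB and HC, Ifitm1 and the fibroblast sum are lowest in SVZ, and the lymphocyte sum is between 33.3 and 72.9.

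Astrocyte markers were read beside the label of the cultures and do not settle their purity. Gfap, the astrocyte filament, read 1007 in VM, 3112 in SVZ, 3800.2 in OB and 10027 in HC, while Slc1a2, a glutamate transporter of mature astrocytes, was below the floor on all 4 arrays. S100b passed the floor in OB (277) and HC (269) but not in VM (73.0) or SVZ (33.6). The summed signals of 7 astrocyte markers were 7162 in VM, 19140.2 in SVZ, 10618 in OB and 23229 in HC. The sum of the 6 fibroblast and meningeal markers was larger in VM (33254) and OB (37355). That of the 14 microglial markers was larger in OB (34113) and HC (35294). Sums over different probe sets do not give shares of cells. Single markers did not share an order: Aqp4, a water channel, read 1956 in VM, 4916 in SVZ, 1574.5 in OB and 3943 in HC, and Aldh1l1, a folate enzyme, 1711 in VM, 5106 in SVZ, 311 in OB and 1727 in HC. Some markers of other cell types were highest in VM or SVZ, though the endothelial and fibroblast sums were lowest in SVZ. The sum of 5 endothelial markers was 334 in VM, 78.8 in SVZ, 203 in OB and 198.5 in HC. Of these markers 1, Cdh5, was above the floor in VM alone, and the others were below it on every array. The fibroblast markers had no common peak. Lum, a collagen-binding proteoglycan of fibroblasts, read 1048 in VM, 17.9 in SVZ, 127.5 in OB and 369.9 in HC. Col1a1 was also highest in VM, but Col1a2, Col3a1 and Dcn were highest in OB and Pdgfra in HC. The neuronal Stmn2 read 1331 in VM, 3465 in SVZ, 218 in OB and 514 in HC. Of the other neuronal markers, Tubb3 passed the floor in OB alone (123.4), and Snap25, Syt1 and Rbfox3 on no array. The microglial sum was far lower in VM and SVZ than in OB and HC, as given beside Irf8. The part of culture composition in the interferon values was not tested.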

How the data were processed

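Probe set signals of 4 arrays were analysed, 1 per brain region. The deposited intensities of 22690 probe sets per array are linear and came from GCOS 1.4, per the submitters' processing notes; its algorithm is not given in the sources used here. Their 2% trimmed means were 400.1 to 400.2, so they were not rescaled. Such equal means make each value relative to the whole array. The number of arrays limits the precision, and no detection calls were used.

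Gene names came from the platform annotation, updated by gene identifier through a RefSeq table; only the 20393 probe sets with 1 symbol were used, and 691 with several were left out. Each gene was its probe set of highest mean log2 signal. Values below the floor were raised to it. A gene was called when at least 2-fold from every other array. The calling script was tested on simulated arrays with known changes, which gives no error rate for these cultures. The rule named members 2-fold apart from every other array, further members of high signal in each role, other pathway genes 2-fold apart, and defining markers; the remaining members, the ligands, receptors, kinases and H2 genes were named after their values were seen. The members, lists and rules were chosen with earlier results of these data known. Analysis used Python 3.11.15, pandas 2.3.3 and numpy 2.4.6. Promoter sequences are from RefSeq.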

Additional observations from a re-analysis of the deposited data

How the results depend on the processing

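With 1 array per region, every value here describes these arrays. Of 96 values recomputed under other settings, 75 stayed within 1.5 times (counts) or 0.22 log2 (medians) of those reported. The 75 include medians taken without requiring a signal above the floor, which could not change because all 37 members had one. Counts of 0 that stayed 0 are also among them. A floor at the 70th percentile gave a median shift of 1.18 in VM, and 0 members were higher in HC; the 14 calls in VM were 10, without Mx1, Mx2, Oas2 and Stat2, and Rsad2 was no longer lower in OB. At the 30th percentile the median shifts were 1.69 in VM and -1.09 in OB. Quantile normalization gave 4 members lower in HC (Irf1 and Ifi35 added) and took Stat2 and Ifit3 from the calls of VM, adding Adar; the mean of all probe sets took Stat2 from those of VM and Rsad2 from the lower calls of OB. A 1.5-fold gap gave 23 higher in VM, 1 higher and 7 lower in OB and 6 lower in HC. Shares of all genes were not computed under the settings of this paragraph, so its counts have no background.

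Leaving out another region's array moved the counts most. Members higher in VM numbered 15 to 26, the most without the SVZ array. Members higher in SVZ numbered 0 to 11, the most without the VM array. Members lower in OB numbered 3 to 15, the most without the HC array, and members lower in HC 2 to 15, the most without the OB array. Members higher in OB numbered 0 to 1. The median shifts ran from 1.42 to 1.72 in VM, -0.0135 to 0.86 in SVZ, -1.06 to -0.43 in OB and -1.40 to -0.43 in HC. The SVZ median turned to -0.0135 without the OB array and to -0.0057 without the HC array. No paired analysis was possible because each region has 1 array and the regions share a single replicate number.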

Other observations

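Opposed probe sets of the same gene were looked for across the array after those of H2-D1 had been seen. Of 4958 genes with several probe sets, 1, H2-D1, had a probe set at least 2-fold higher in both the ventral mesencephalon and the subventricular zone than in both other cultures and another at least 2-fold lower in both. It had 4 probe sets of the first kind and 3 of the second. The cause was not tested.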
